A study of Mus musculus with 18 samples.

Results

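The posterior HoxD genes are Hoxd8 to Hoxd13, the 5′ part of the HoxD cluster on mouse chromosome 2, with Evx2, the even-skipped-type homeobox gene beside Hoxd13. They were taken by gene symbol from the deposited expression table, which held 7 such genes among 55138, and all 7 passed the filter on low counts at both stages. Hox genes encode homeodomain transcription factors that give cells their position along the body axis, and within a cluster they are switched on in order, from the 3′ genes, early and anterior, to the 5′ genes, late and posterior. The 5′ HoxD genes are best known for patterning the lower spine, the limbs, the genital tubercle and the tail end, and group 13 genes such as Hoxd13 are associated with the end of axial elongation. Evx2 is known in digit primordia and in spinal interneurons.

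RNA from mouse embryos dissected free of the head was sequenced in 18 libraries, 6 groups of 3. Embryos of E9.5 were either wild type or HoxB Del(i9-13). The E10.5 embryos had 4 genotypes: wild type, HoxB Del(i9-13), Hoxb13hd, and the double mutant HoxB Del(i9-13):Hoxb13hd. All mutants were homozygous and the wild types were littermates. Del(i9-13) is read here as a deletion between Hoxb9 and Hoxb13, and the sources do not explain the letters hd. Poly(A) enrichment was used for E9.5 and ribosomal RNA depletion for E10.5, so that stage and library type cannot be told apart. Whether a library came from 1 embryo or a pool is not stated, and the p-values rest on the spread among libraries, which may be technical.

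Totals were 19.3 to 35.9 M counts per library, and replicates varied beyond sampling noise in all groups (chi-square per degree of freedom 13.2 to 35.1). The deletion matched the labels, and no value here checks the hd allele. Gm53, a gene that lies between Hoxb13 and Hoxb9, had 0 counts in the 6 E10.5 libraries with the deletion, against 371 to 521 per library in wild type, and 3 counts in the 3 E9.5 deletion libraries together. In Hoxb13hd, which does not carry the deletion, it had 652 to 1076 counts per library. Hoxb13, a gene of the HoxB cluster, was at 42.0 ± 3.79 CPM (counts scaled to a library total of 1 M; SD, n = 3) in E9.5 Del(i9-13) against 0.0927 ± 0.0523 in wild type. At E10.5 it was at 9.61 ± 3.30 CPM in Del(i9-13) and 11.1 ± 1.06 in the double mutant, against 0.434 ± 0.607 in wild type and 0.0510 ± 0.0529 in Hoxb13hd. Of the head markers, Six3 and Six6 were at 0 counts in all 4 E10.5 groups. Where a level differs between these headless embryos, fewer expressing cells and less RNA per cell cannot be told apart.

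In mm10 the 7 genes cover 54.9 kb. From Evx2 (2:74652991-74659557, minus strand, ENSMUSG00000001815) they run through Hoxd13 (2:74668310-74671599, ENSMUSG00000001819), Hoxd12 (2:74675013-74677705, ENSMUSG00000001823), Hoxd11 (2:74682323-74684168, ENSMUSG00000042499), Hoxd10 (2:74691924-74695105, ENSMUSG00000050368) and Hoxd9 (2:74697727-74700208, ENSMUSG00000043342) to Hoxd8 (2:74704615-74707933, ENSMUSG00000027102). The HoxD genes are on the plus strand and Evx2 points away from them, its start 8.75 kb from that of Hoxd13. Hoxd3os1 is an antisense gene that overlaps Hoxd8, and as the strand setting of the counting is not stated, counts of Hoxd8 are uncertain to that extent.

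The upstream windows of 3 genes are shown: that of Hoxd9, the member that passed a test below, and those of Hoxd13 and Evx2, the neighbouring pair whose levels ran together and whose windows held a searched motif. The windows come from RefSeq promoters on GRCm38.p6 (mm10), which matched 7 of 7 members. Each window runs 5′ to 3′ on the gene's strand and ends before the RefSeq start, or for Hoxd9 before the deposited gene start. Capitals mark TATAAA and CAATAAA.
Hoxd9 (chr2:74697513-74697726, plus strand): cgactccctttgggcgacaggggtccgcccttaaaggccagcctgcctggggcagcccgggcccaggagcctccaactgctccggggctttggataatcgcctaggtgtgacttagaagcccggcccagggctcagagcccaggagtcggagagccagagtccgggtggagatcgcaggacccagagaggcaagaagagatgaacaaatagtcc
Hoxd13 (chr2:74667975-74668224, plus strand): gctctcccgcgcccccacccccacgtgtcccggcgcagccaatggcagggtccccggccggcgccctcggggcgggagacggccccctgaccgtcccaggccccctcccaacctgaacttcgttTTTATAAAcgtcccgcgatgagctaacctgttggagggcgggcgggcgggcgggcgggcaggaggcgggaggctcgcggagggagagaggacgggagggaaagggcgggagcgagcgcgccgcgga
Evx2 (chr2:74659558-74659807, minus strand): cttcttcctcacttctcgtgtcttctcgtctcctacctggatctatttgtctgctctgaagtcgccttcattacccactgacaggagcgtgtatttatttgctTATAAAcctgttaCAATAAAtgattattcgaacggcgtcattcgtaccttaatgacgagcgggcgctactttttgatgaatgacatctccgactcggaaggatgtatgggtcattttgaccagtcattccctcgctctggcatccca

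The search covered both strands of the 250 bases before each RefSeq start. TATAAA, the TATA box, was in 12.4% of 32851 promoters, and CAATAAA, a core that group 13 HOX proteins prefer, in 4.2%. Hoxd13 held 2 overlapping TATAAA matches, 1 on each strand, 126 and 124 bases before its start. Evx2 held TATAAA 147 bases and CAATAAA 134 bases before its start. The other 6 of the 8 member windows held neither (Hoxd11 has 2 RefSeq starts). GC content ran from 44.4% to 74.4%, highest in Hoxd13, against a median of 52.4% over all promoters. A match of letters is a description and not a site.

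Levels differed between genes along the cluster. Levels between genes are given as FPKM, fragments divided by transcript length in kb and by the mapped total, which corrects for length. In E10.5 wild type, Hoxd10 was at 8.997 ± 1.47 FPKM (SD, n = 3) and Hoxd8 at 8.52 ± 0.847, and their libraries overlapped. Hoxd9 followed at 4.93 ± 0.439, below every Hoxd8 library and above every Hoxd13 library, and then came Hoxd13 at 3.38 ± 0.312, Hoxd11 at 2.61 ± 0.247 and Hoxd12 at 2.40 ± 0.870. Of these 3, Hoxd13 lay above Hoxd11 in every library, while Hoxd11 and Hoxd12 overlapped. Evx2 was lowest at 0.216 ± 0.0691 FPKM, with 22 to 41 counts per library.

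In E9.5 wild type Hoxd9 led at 10.8 ± 0.170 FPKM, followed by Hoxd10 at 9.61 ± 1.47 and Hoxd8 at 8.85 ± 0.335, each overlapping the next. Hoxd13 (4.26 ± 1.29 FPKM) lay below every Hoxd8 library. Hoxd13, Hoxd11 (3.92 ± 1.38) and Hoxd12 (1.31 ± 1.02) each overlapped the next, and Evx2, at 0.299 ± 0.0191, lay below every Hoxd12 library. The E9.5 and E10.5 values are set side by side and not compared, since library type differs.

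**Figure D1:**
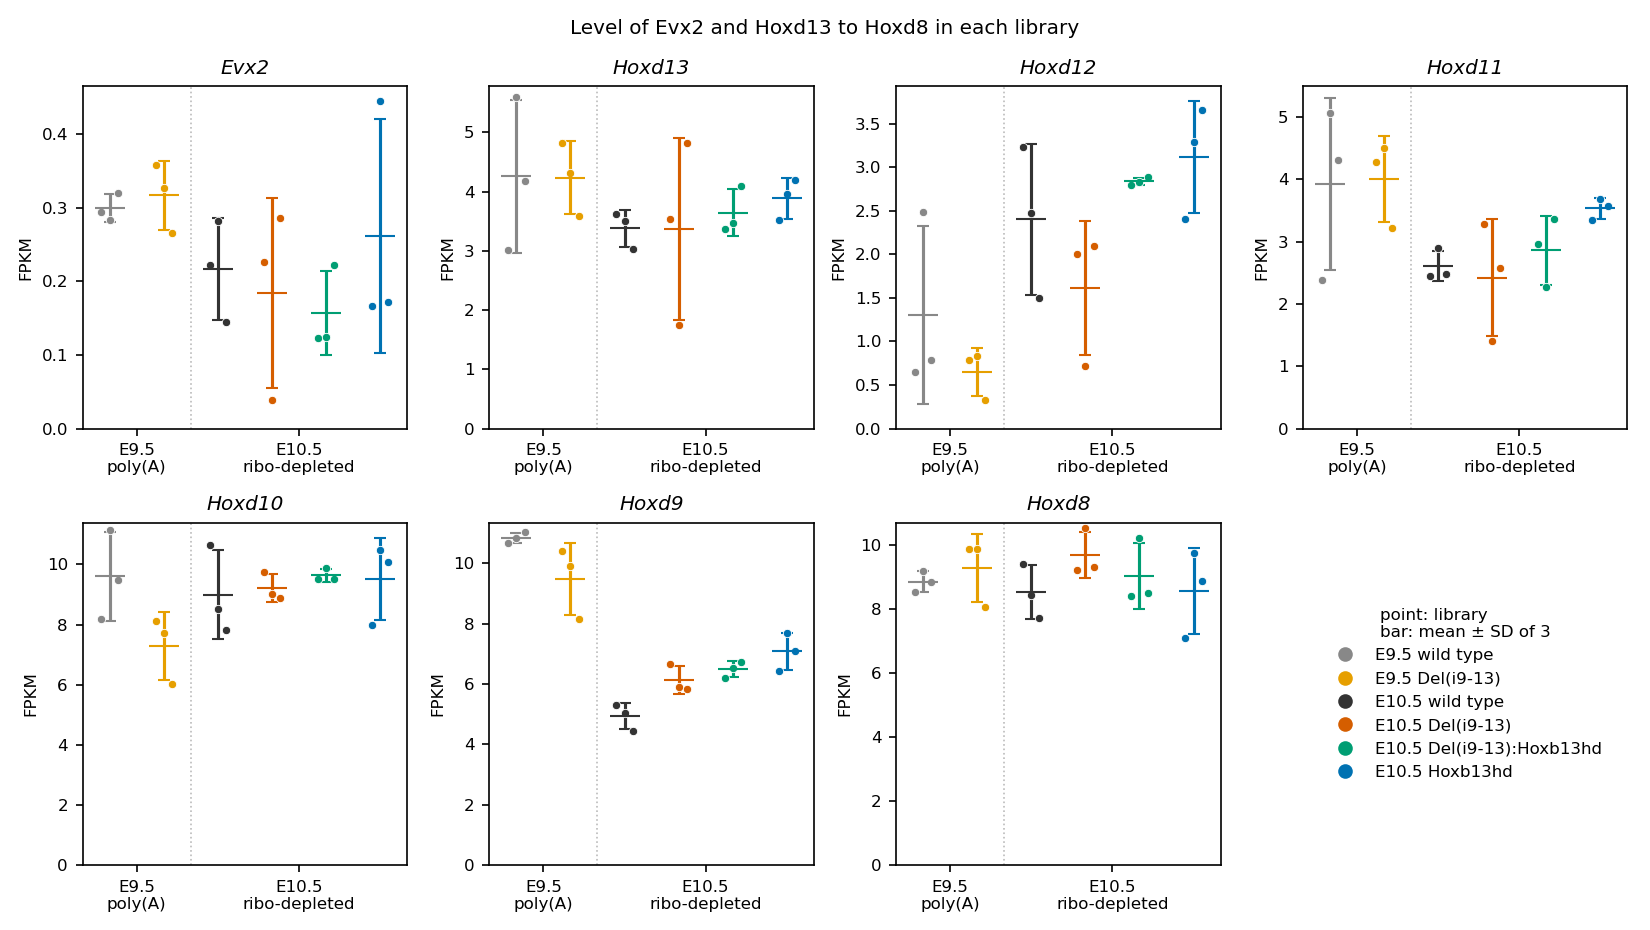
Each panel plots 1 gene, with FPKM on the vertical axis (each panel has its own scale from 0) and the 6 groups from left to right; points are libraries and bars are the mean ± SD of 3, with a dotted line between the poly(A) E9.5 and the ribo-depleted E10.5 groups. At E10.5 the Hoxd9 points of wild type, 4.44 to 5.30, lie below those of all 3 mutants, and 1 Del(i9-13) library lies low for Hoxd13, Hoxd12, Hoxd11 and Evx2.

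Hoxd8, Hoxd9 and Hoxd10 led the 7-gene FPKM sum in every group. In E10.5 wild type, Hoxd10 took 28.9% ± 1.58 (SD, n = 3) of it, Hoxd8 27.5% ± 0.841, Hoxd9 15.9% ± 0.642, Hoxd13 10.9% ± 0.474, Hoxd11 8.498% ± 1.26, Hoxd12 7.58% ± 1.90 and Evx2 0.692% ± 0.193. The Hoxd9 share was 15.2% to 16.4% in the wild-type libraries and 17.3% to 20.8% in the 9 mutant libraries, with no overlap. At E9.5 the Hoxd10 share was 24.3% to 24.99% in wild type and 20.3% to 20.99% in Del(i9-13), also with no overlap. Shares were not tested, no like figure was computed over all genes, and the shares restate level differences given below. In CPM, 13.0%, 21.5% and 25.4% of all genes did not overlap between E10.5 wild type and Del(i9-13), the double mutant and Hoxb13hd. Between the E9.5 groups it was 18.9%.

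**Figure D2:**
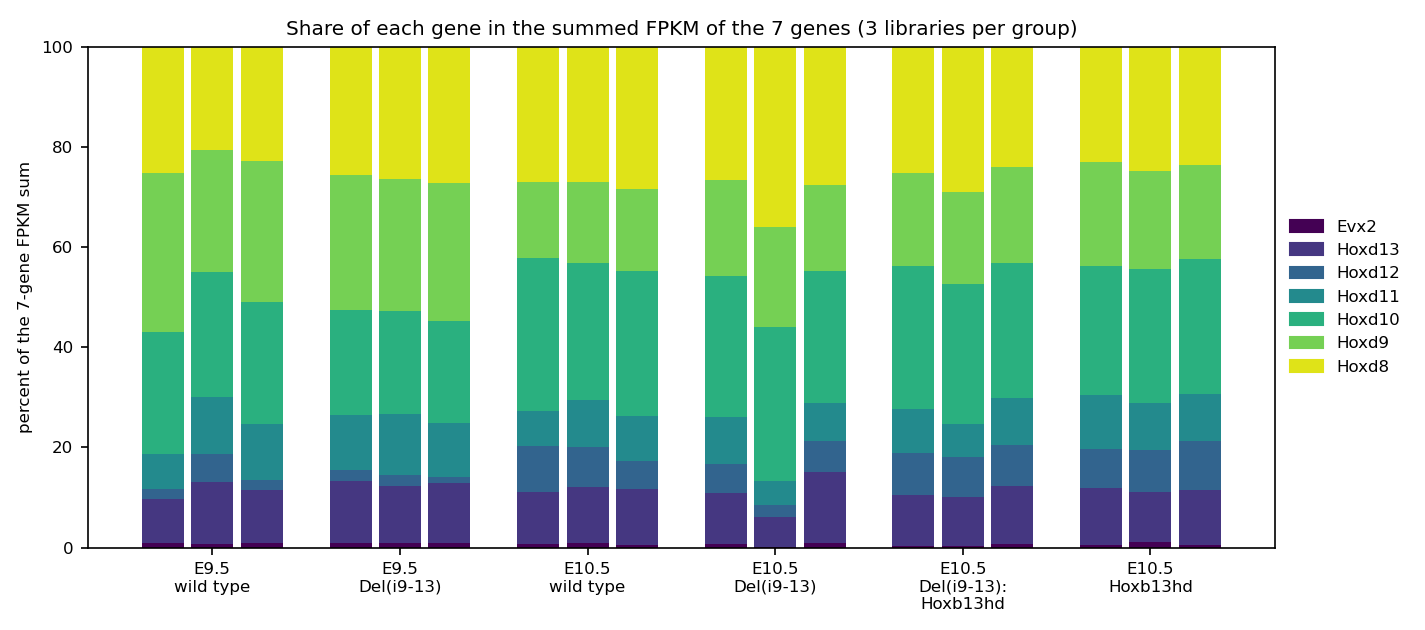
Each stacked bar is 1 library, 3 per group, and its segments are the percent of the 7-gene FPKM sum held by each gene. Hoxd8, Hoxd9 and Hoxd10 make up most of every bar, and replicate 2 of E10.5 Del(i9-13), the middle bar of its group, has the thinnest Hoxd11 to Evx2 segments of the E10.5 bars.

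Hoxd9 was the only member that passed edgeR's test in any comparison, and it did so in Hoxb13hd embryos. Hoxd9 belongs to group 9, which acts in the trunk and the proximal limb. Wild-type E10.5 libraries were at 5.30, 5.05 and 4.44 FPKM and Hoxb13hd libraries at 6.44, 7.69 and 7.10, so that all 3 mutants were above all 3 controls. In CPM the means were 22.2 ± 2.04 and 14.8 ± 1.24 (SD, n = 3). Hoxd9 rose by 0.59 on the log2 scale (SE 0.098, 95% interval 0.38 to 0.80), or 1.51-fold, with an adjusted p of 0.0118 by edgeR's quasi-likelihood test. This was 1 of 7 members called, beside 3.01% of all 17202 genes in the same comparison.

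The same gene in the other mutants was higher than wild type but was not called. Del(i9-13) libraries were at 6.68, 5.89 and 5.85 FPKM and double-mutant libraries at 6.19, 6.54 and 6.72, each above every wild-type library. Hoxd9 was the 1 member without overlap in either comparison, beside 13.0% and 21.5% of all genes. The differences from wild type were 0.32 (95% interval 0.11 to 0.53, adjusted p 0.264) and 0.38 (0.16 to 0.59, adjusted p 0.139) on the log2 scale. Averaged over the deletion (6 against 6 libraries), Hoxd9 was higher with Hoxb13hd by 0.32 (SE 0.069, adjusted p 0.0219 with edgeR). In that test 6.06% of all genes were called, and Hoxd9 was 1 of 7 members. The average joins unlike values: 0.59 without the deletion and 0.05 with it. The latter, the double mutant against Del(i9-13), had a 95% interval of -0.16 to 0.26 (adjusted p 0.826 with edgeR). The averaged call thus rests mostly on the Hoxb13hd against wild type difference already given and is not a separate result. The interaction of the alleles was -0.54 (95% interval -0.83 to -0.24, adjusted p 0.131), so that a difference between the effect of Hoxb13hd with and without the deletion did not pass.

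The call in Hoxb13hd held in 20 of 22 alternative analyses and was lost without Hoxb13hd replicate 2 (adjusted p 0.0645) or replicate 3 (0.0507). The averaged call held in 16 of 21 and was lost without Del(i9-13) replicate 2 (0.0552) or 3 (0.0632), double-mutant replicate 3 (0.0541) or Hoxb13hd replicate 2 (0.0524), and with limma on unfiltered FPKM (0.0731).

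Tail bud genes moved in the same libraries. Of 14 such genes (among them T, Cdx, Wnt and Fgf genes of the axial progenitors), 5 rose in Hoxb13hd against wild type: Cdx1 by 1.16, Hes7 by 2.04, Fgf8 by 0.79, Sp5 by 1.07 and Wnt3a by 0.95 on the log2 scale, with adjusted p of 0.0345, 0.0370, 0.0375, 0.0423 and 0.0490 by edgeR. These calls held in 13 of 22, 9 of 20, 13 of 22, 8 of 22 and 7 of 22 alternatives. All 5 were lost without wild-type replicate 1 or 3, Hoxb13hd replicate 2 or 3 or Del(i9-13) replicate 3, with adjusted p up to 0.183. The list's median was 1.21, against 0.0031 over all genes, and none of its genes was at 0 in any group. Its summed level was 155 to 209 CPM in Hoxb13hd libraries and 97.1 to 140 in wild type. Wild-type replicate 3 had the lowest tail bud median of the 12 libraries, -1.19 on the log2 scale relative to the stage mean, and without it Hoxd9 in Hoxb13hd was at 0.53 (adjusted p 0.0487). The liver bud and visceral endoderm list summed to 43.9 to 119 CPM in Hoxb13hd and 181 to 631 in wild type. Of the limb bud list, 1 of 15 genes rose, Sp8, by 0.53 (adjusted p 0.0310). The part of these genes' cells in the Hoxd9 result was not tested.

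**Figure D3:**
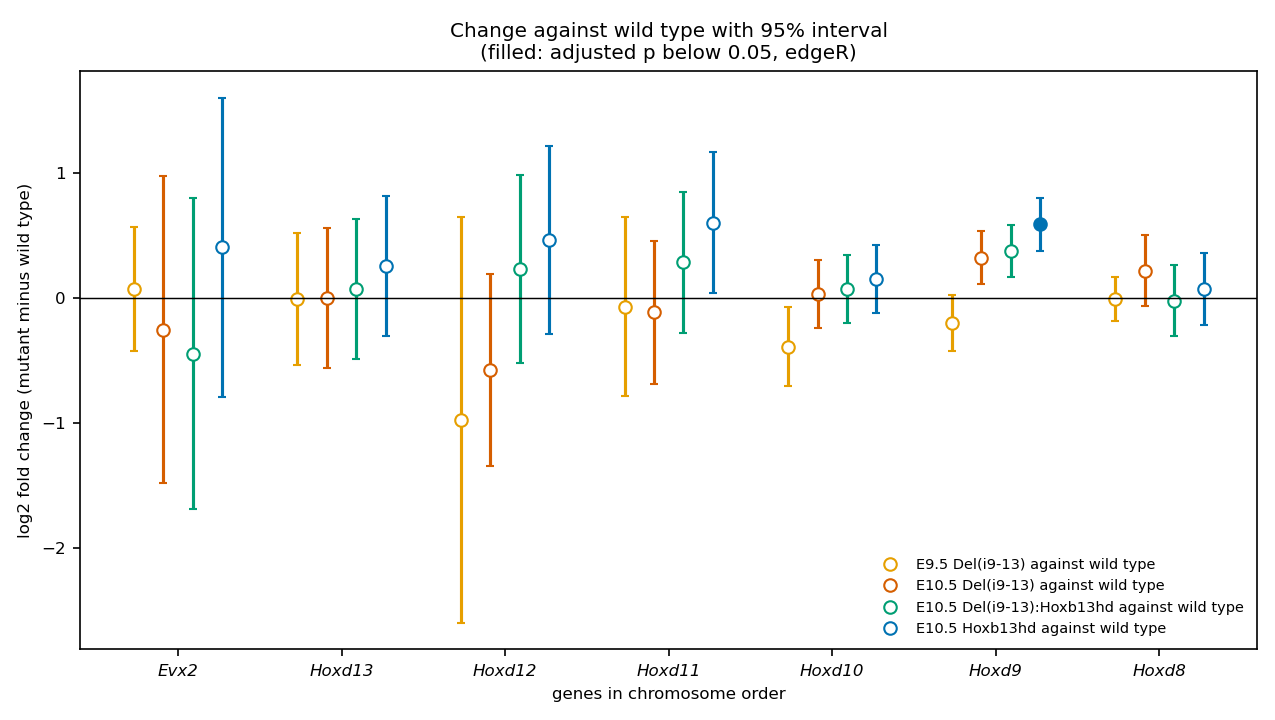
The vertical axis is the log2 fold change, mutant minus wild type, for each gene in chromosome order; points are edgeR estimates for the 4 mutant groups, bars their 95% intervals, and a filled point has an adjusted p below 0.05. The only filled point is Hoxd9 in Hoxb13hd at 0.59, and the widest intervals are those of Evx2 and Hoxd12.

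The other 6 members had positive estimates in Hoxb13hd against wild type, and none was called. The median over the 7 was 0.41, which is the Evx2 estimate, against 0.0031 over all genes. In CPM 3 of 7 members (Hoxd9, Hoxd11 and Hoxd13) lay above wild type in every library, as did 12.8% of all genes. In either direction, 25.4% of all genes did not overlap between the groups. For Hoxd13 the gap was 12.31 against 12.29 CPM, and in FPKM its groups overlapped (3.513 in Hoxb13hd replicate 1, 3.619 in wild-type replicate 1). Hoxd11, which patterns the forearm and sacral region, was at 3.36, 3.68 and 3.57 FPKM against 2.46, 2.90 and 2.48. Its difference was 0.60 (95% interval 0.04 to 1.17, unadjusted p 0.0385, adjusted p 0.217). In this comparison 2 of 7 members, Hoxd9 and Hoxd11, were under an unadjusted p of 0.05 with edgeR, as were 20.4% of all genes. Hoxd12 was at 0.46 (-0.29 to 1.22), Hoxd13 at 0.25 (-0.31 to 0.81), Hoxd10 at 0.15 (-0.12 to 0.43), Hoxd8 at 0.07 (-0.22 to 0.36) and Evx2 at 0.41 (-0.79 to 1.60). As fold changes, the upper bounds were 1.28 for Hoxd8 and 1.34 for Hoxd10, against 3.04 for Evx2.

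Del(i9-13) alone gave no call among the 7 genes at E10.5, where 0.488% of all genes were called with edgeR. DESeq2 and limma also called none. With edgeR 1 member, Hoxd9, was under an unadjusted p of 0.05, as were 9.13% of all genes. The median over the members was -0.0028, against 0.0020 over all genes. Hoxd13, which patterns digits and the tail end, was at 3.53, 1.75 and 4.82 FPKM against 3.62, 3.497 and 3.03 in wild type. Of the mutant libraries, 1 was above the wild-type range, 1 within it and 1 far below it, and the difference was -0.00 (95% interval -0.56 to 0.56). Hoxd12, a neighbour with partly shared limb roles, was at 2.01, 0.722 and 2.10 FPKM against 3.23, 2.48 and 1.496 (-0.58, -1.35 to 0.19, adjusted p 0.682). Evx2 had 31, 5 and 40 counts against 25, 41 and 22 (-0.25, -1.48 to 0.97).

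Replicate 2 of E10.5 Del(i9-13) stood apart in the 5′ genes. It was the lowest of the 12 E10.5 libraries for Hoxd11, Hoxd12, Hoxd13 and Evx2, at 0.414, 0.361, 0.426 and 0.155 of the mean of the other 2 replicates in CPM. Its 5 Evx2 counts have an exact 95% Poisson interval of 1.62 to 11.7, for counting error only. Hoxd8, Hoxd9 and Hoxd10 were at 1.11, 0.947 and 0.961 of that mean, so that the drop began between Hoxd10 and Hoxd11. Hoxa13 and Hoxc13, the group 13 genes of other clusters, were also lowest there, at 0.0649 and 0.210, and Hoxb13 was at 0.513. Of the 14 tail bud genes, 10 were below the mean of the other 2 replicates, at 0.206 to 0.948 of it, among them Hes7 (0.206), Tbx6 (0.397), Msgn1 (0.443), Nkx1-2 (0.541) and Cdx2 (0.636), and 4 were above it, at 1.101 to 1.178. Of these genes, 3 (Nkx1-2, Hes7 and Gdf11) were lowest of the 12 in this library. How many of all genes lay below that mean, or were lowest in this library, was not computed. The replicates of this group varied most of all groups (chi-square per degree of freedom 35.1). The list's median was -0.80 on the log2 scale relative to the stage mean, against -0.29 and -0.37 in the other replicates. The part of tail bud tissue in this library's values was not tested.

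Without that library, the estimates for Del(i9-13) against wild type were 0.30 for Hoxd13 (adjusted p 0.714), 0.20 for Hoxd11, -0.23 for Hoxd12, 0.21 for Evx2, 0.17 for Hoxd8, 0.35 for Hoxd9 and 0.05 for Hoxd10, and again none was called.

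**Figure D4:**
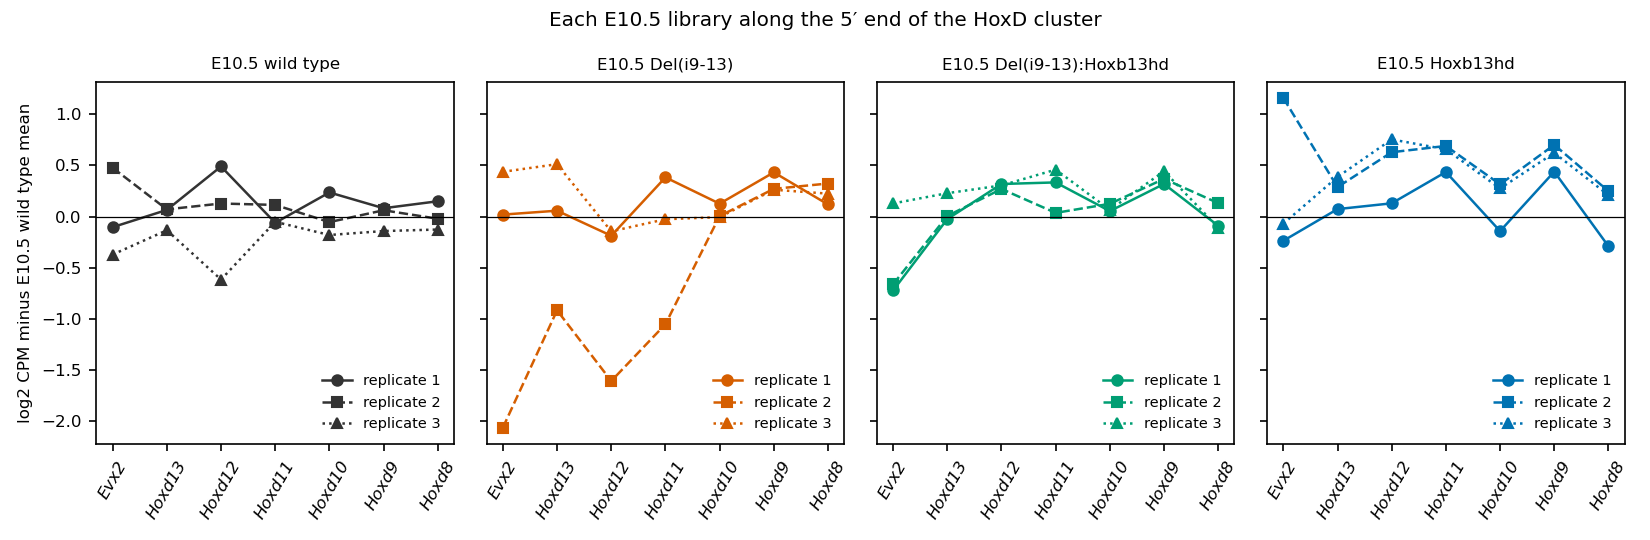
Each line is 1 E10.5 library, with the genes in chromosome order and the vertical axis the log2 CPM minus the mean of the wild-type libraries. In Del(i9-13) the dashed line of replicate 2 is near the other replicates from Hoxd8 to Hoxd10 and far below them from Hoxd11 to Evx2, whereas the 3 Hoxb13hd lines are above 0 from Hoxd13 to Hoxd11 and at Hoxd9.

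At E9.5 the deletion gave no member call with edgeR, where 0.362% of 16041 genes were called, nor with DESeq2 or limma. Hoxd10 alone was under an unadjusted p of 0.05 with edgeR, beside 11.7% of all genes. Hoxd10, a group 10 gene of the lumbar region, was at 8.11, 7.73 and 6.01 FPKM against 8.20, 11.1 and 9.49. All mutant libraries were below all controls, and the difference was -0.39 (95% interval -0.71 to -0.07, adjusted p 0.356). It passed with edgeR on unfiltered counts (adjusted p 0.0268), and with the level of Xist as a covariate it was -0.15 (adjusted p 0.888). Hoxd9 was at 10.4, 9.91 and 8.14 FPKM against 10.7, 10.8 and 11.02 (-0.20, -0.42 to 0.02, adjusted p 0.479). These were 2 of 7 members without overlap, both lower, beside 18.9% of all genes in either direction and 9.83% lower. Hoxd12 was at 0.789, 0.828 and 0.327 FPKM against 0.649, 2.48 and 0.789, a difference of -0.98 (-2.60 to 0.64) in which wild-type replicate 2 alone lay above 1 FPKM. Hoxd13, Hoxd11, Hoxd8 and Evx2 were within 0.08 of 0 on the log2 scale, with intervals of -0.53 to 0.52, -0.78 to 0.65, -0.18 to 0.17 and -0.42 to 0.57. The Hoxd11, Hoxd12 and Hoxd13 values moved with the model: with the Xist covariate they were 0.74, 0.06 and 0.49 (adjusted p 0.441, 0.995 and 0.696), and leaving out 1 library gave -0.35 to 0.19, -1.31 to -0.10 and -0.20 to 0.23. The lowest of each came without wild-type replicate 1 and the highest without wild-type replicate 2. Wild-type replicate 1 was the lowest E9.5 library for Hoxd11 (5.13 CPM) and Hoxd13 (9.22 CPM). Its tail bud median was also lowest, -0.78 on the log2 scale relative to the stage mean, against 0.043 to 0.28 in the rest. In Del(i9-13) against wild type 13 of 14 tail bud genes had positive estimates (median 0.43), with 0 called. The part of tail bud tissue in these values was not tested. The summed liver bud and visceral endoderm list was 111 to 1203 CPM in these mutants and 27.4 to 105 in wild type, and its part in the Hoxd10 and Hoxd9 values was not tested.

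The deletion's difference at E10.5 minus that at E9.5 was 0.54 for Hoxd9 (95% interval 0.22 to 0.86, unadjusted p 0.0031, adjusted p 0.388) and 0.44 for Hoxd10 (0.02 to 0.86, adjusted p 0.705). No member passed with edgeR, DESeq2 or limma, and 0.0453% of 17670 genes passed with edgeR. Under an unadjusted p of 0.05 with edgeR were 2 of 7 members and 6.86% of all genes. This difference also spans the library types.

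The double mutant gave no member call against wild type (0.401% of genes called), Del(i9-13) (0.907%) or Hoxb13hd (0.959%) with edgeR. Each had 1 member under an unadjusted p of 0.05, respectively Hoxd9, Hoxd12 and Hoxd9, beside 12.5%, 16.1% and 15.2% of all genes. Limma called none of the members. DESeq2 called Hoxd9 against wild type (adjusted p 0.0474) and no member in the other 2. Hoxd12 was at 2.80, 2.83 and 2.88 FPKM in the double mutant and 2.01, 0.722 and 2.10 in Del(i9-13). The libraries did not overlap, the only such member, beside 20.3% of all genes, and the difference was 0.81 (95% interval 0.04 to 1.57, adjusted p 0.288). Without Del(i9-13) replicate 2 it was 0.46 (adjusted p 0.536). Of the head list, Lhx2, which also acts in the limb bud, was higher in the double mutant than in wild type by 0.53 (adjusted p 0.0443 with edgeR). It was higher than in Hoxb13hd by 0.51 (adjusted p 0.0359). With the deletion averaged over Hoxb13hd it was higher by 0.50 (adjusted p 0.00869), and this call held in 21 of 21 alternatives. In Del(i9-13) against wild type Lhx2 was at 0.49 (adjusted p 0.0551), and all 5 tested head genes had positive estimates. The 11-gene head list summed to 37.1 to 40.4 CPM in the double mutant and 34.5 to 38.2 in Del(i9-13). It summed to 25.6 to 32.3 in Hoxb13hd and 22.3 to 28.9 in wild type. Six3, Six6 and Otx2 were at 0 in the double mutant, Del(i9-13) and wild type. The part of the head list in the member values of either deletion group was not tested. Against Hoxb13hd all 7 estimates were negative, with a median of -0.21 against -0.0098 over all genes, and no member was without overlap, beside 22.6% of genes. The comparisons share libraries, so that the signs in one are not independent of those in another.

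Averaged over Hoxb13hd (6 against 6 libraries), the deletion gave no member call and none under an unadjusted p of 0.05 with edgeR. Of all genes, 0.5% were called and 13.6% were under that unadjusted p. DESeq2 and limma called none. The differences were Hoxd9 0.05 (95% interval -0.09 to 0.20), Hoxd10 -0.02 (-0.22 to 0.17), Hoxd8 0.06 (-0.14 to 0.27), Hoxd13 -0.09 (-0.49 to 0.30), Hoxd11 -0.22 (-0.62 to 0.18), Hoxd12 -0.40 (-0.94 to 0.13) and Evx2 -0.55 (-1.42 to 0.32). In the same fit Hoxb9, beside the deleted HoxB interval, fell by 0.73 on the log2 scale. Averaged over the deletion, Hoxb13hd gave 0.50 for Hoxd11 (0.10 to 0.90, adjusted p 0.121) and 0.64 for Hoxd12 (0.10 to 1.17, adjusted p 0.145), neither called by edgeR, while DESeq2 called Hoxd12 (adjusted p 0.0432). With edgeR 3 of 7 members (Hoxd9, Hoxd11 and Hoxd12) were under an unadjusted p of 0.05 in this average, as were 23.3% of all genes. Without Del(i9-13) replicate 1, edgeR called Hoxd11, at 0.68 (adjusted p 0.0144), and without Del(i9-13) replicate 2 it was at 0.34 (adjusted p 0.127). The interaction gave no member call (0.523% of genes called) with edgeR or limma. Hoxd9 was under an unadjusted p of 0.05 with edgeR, as were 11.7% of all genes, and was called by DESeq2 (adjusted p 0.0488).

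The rest of the HoxD cluster held 2 called genes, each close to the threshold. Hoxd4, an anterior gene of the cluster, was lower in the double mutant than in wild type, 42.2 ± 3.56 against 58.0 ± 4.42 CPM (SD, n = 3), by a log2 difference of -0.46 (adjusted p 0.0459), and lower than in Hoxb13hd, at 60.4 ± 3.32 CPM, by -0.52 (adjusted p 0.0191). It was lower with the deletion averaged over Hoxb13hd by -0.31 (adjusted p 0.0490). These calls held in 6 of 22, 17 of 22 and 3 of 21 alternatives. Haglr, a long non-coding RNA gene between Hoxd1 and Hoxd3, was higher in Hoxb13hd than in wild type, 6.21 ± 0.666 against 4.04 ± 0.550 CPM, by 0.62 (adjusted p 0.0440), a call that held in 6 of 22. The second of the Hoxd4 calls was lost without double-mutant replicate 2 or 3 or Hoxb13hd replicate 2 or 3 (adjusted p 0.0580 to 0.0990). The other Hoxd4 calls and the Haglr call were each lost when any E10.5 library but Del(i9-13) replicate 1 was left out, with adjusted p up to 0.230, 0.155 and 0.178. Of the 11 genes in and around HoxD outside the 7, no other was called in the 10 comparisons.

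Paralogs of the members in the other clusters were read beside them. Of the 14 genes of groups 8 to 13 of HoxA, HoxB and HoxC with Evx1, Hoxb13 and Hoxb9 alone were called in any comparison, and both belong to the mutated cluster. Their median in Hoxb13hd against wild type was 0.31, with 11 of 14 estimates positive. Evx1, the paralog of Evx2, was at 1.16 there (adjusted p 0.0890). With edgeR no gene of the spinal interneuron list (9 tested), the Polycomb, trithorax and architectural factor list (13), the Hox cofactor list of PBX and MEIS genes (6) or the erythroid list (5) was called in any comparison. In Hoxb13hd against wild type their medians were -0.35, 0.0034, -0.12 and 0.22.

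Across the 12 E10.5 libraries the log2 CPM of Evx2, Hoxd13, Hoxd12 and Hoxd11 ran most closely together. Pearson's r was 0.69 to 0.86 over their 6 pairs: 0.85 between Hoxd13 and Evx2, 0.86 between Hoxd11 and Hoxd12, and 0.81 between Hoxd13 and either of Hoxd12 and Hoxd11. Over the other 15 pairs r was -0.33 to 0.63. Hoxd8, Hoxd9 and Hoxd10 did not form a group of their own: r was 0.63 between Hoxd8 and Hoxd10 and 0.62 between Hoxd9 and Hoxd10 but 0.26 between Hoxd8 and Hoxd9, below the 0.56 of Hoxd10 with Hoxd12 and the 0.55 of Hoxd9 with Hoxd11. The lowest was Hoxd8 with Hoxd11. These are descriptions over libraries that share genotype and dissection. The high values among the 5′ genes rest largely on Del(i9-13) replicate 2: without it r was 0.60, 0.57, 0.39 and 0.35 for the first 4 pairs, and Spearman's rho over all 12 was 0.78, 0.60, 0.51 and 0.60. In the 11 libraries Hoxd9 and Hoxd11 had the highest r, 0.87.

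**Figure D5:**
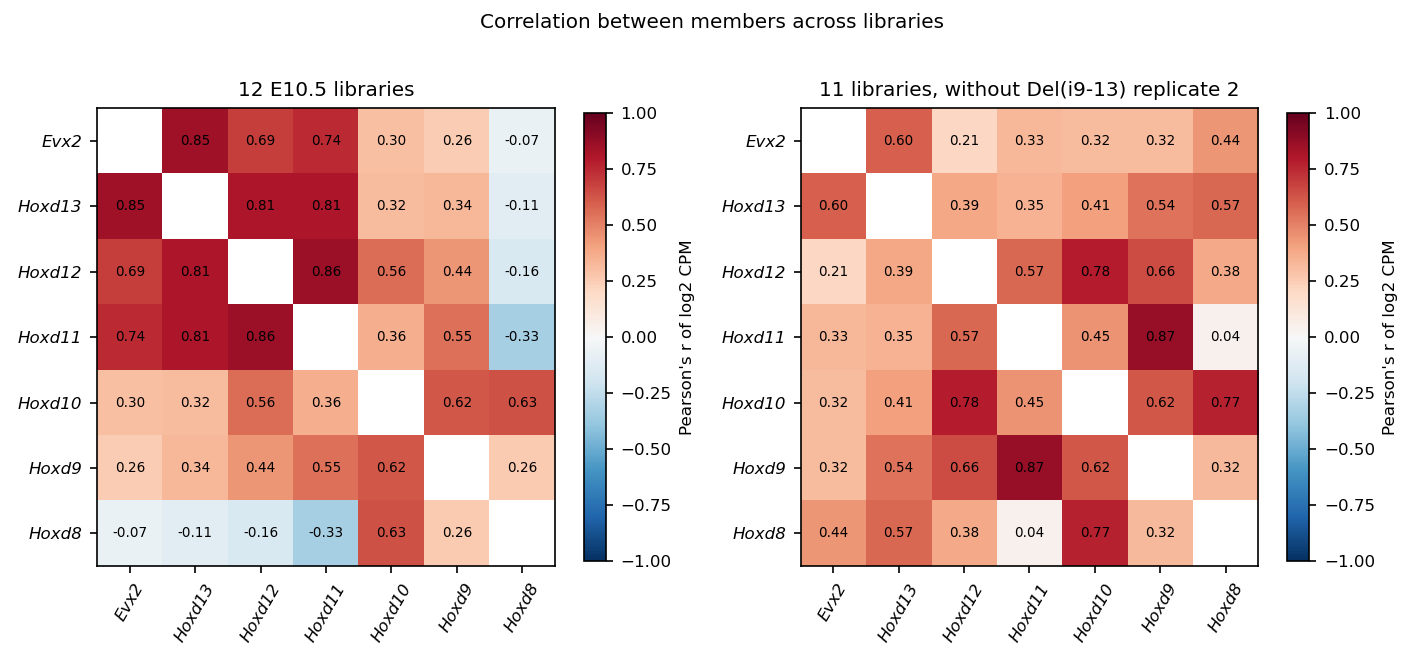
Both panels show Pearson's r of log2 CPM for each pair of the 7 genes, with the value printed in each cell and colour from -1 to 1, over 12 E10.5 libraries (left) and 11 without Del(i9-13) replicate 2 (right). The dark block of Evx2 to Hoxd11 at the left is paler at the right, where Hoxd13 and Evx2 are at 0.60.

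The genes most like each member over the same 12 libraries, among 13007 other named genes of at least 1 CPM, differed between members. For Hoxd12 they were Hoxc11 (r 0.96), Hoxa11os (0.92), an antisense transcript of Hoxa11, and Hoxc12 (0.92). These held at 0.90, 0.84 and 0.88 without Del(i9-13) replicate 2. For Hoxd13 they were Cer1 (0.91), Hoxa13 (0.90) and Hoxc10 (0.85), which went to 0.61, 0.59 and 0.11 without it. For Hoxd9 they were Notum (0.94), a secreted WNT inhibitor, Dusp4 (0.91) and Krt19 (0.91), with 0.94, 0.91 and 0.91 without that library. After subtracting each group's mean these 3 were at 0.86, 0.58 and 0.67, so that the last 2 rest in part on differences between genotypes. For the genes named with the other members, r after that step was 0.83 to 0.96. Hoxd11 was closest to Zfp97 (0.96), Fgf18 (0.94) and Mtfr2 (0.94), Hoxd10 to Lypla1 (0.86), Edar (0.85) and Itgb5 (0.82), Hoxd8 to Ccs (0.92), Gpr180 (0.91) and Cep57l1 (0.90), and Evx2 to Tmem100 (0.84), Tfb2m (0.84) and Prkci (0.83). Without Del(i9-13) replicate 2 the Evx2 values were 0.64, 0.86 and 0.73, and those of Hoxd11, Hoxd10 and Hoxd8 were 0.82 to 0.91.

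Ratios between some neighbouring genes are given as ranges over the libraries of each group. The Hoxd9 to Hoxd8 ratio of FPKM at E10.5 was 0.563 to 0.599 in wild type and 0.791 to 0.909 in Hoxb13hd, with 0.640 to 0.793 in the double mutant and 0.560 to 0.724 in Del(i9-13). Wild type did not overlap with either Hoxb13hd group and overlapped with Del(i9-13). The Hoxd12 to Hoxd13 ratio was 0.413 to 0.569 in Del(i9-13) and 0.704 to 0.832 in the double mutant, with 0.494 to 0.893 in wild type and 0.684 to 0.871 in Hoxb13hd. In Del(i9-13) replicate 2 it was 0.413, near the 0.436 of replicate 3, so that the 2 genes were low there to a like degree. At E9.5 the Hoxd9 to Hoxd8 ratio was 1.178 to 1.25 in wild type and 1.00 to 1.05 in Del(i9-13). These ratios were not tested, and no such overlap was counted over all genes. The Hoxd9 to Hoxd8 ratio holds the Hoxd9 levels already given and is not a separate result.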

How the data were processed

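RNA-seq was analysed from 2 tables of all 18 libraries. The submitters' processing notes name cutadapt 1.18, STAR 2.7.10a, Cufflinks 2.2.1 and the mm10 build. The authors deposited whole-number read counts per Ensembl gene and, in a second table, FPKM. How reads were counted is not given in the sources. Groups came from the sample titles, and 0 columns belonged to other samples.

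Counts were tested in R 4.3.3 with edgeR 4.0.16 (filterByExpr with a minimum count of 10 and a minimum total of 15, TMM scaling, robust quasi-likelihood fit). The 6 E9.5 and the 12 E10.5 libraries were fitted separately, and the 12 wild-type and Del(i9-13) libraries of both stages together for the stage difference. Benjamini-Hochberg adjustment covered all genes tested, and a gene with an adjusted p below 0.05 was called. Intervals are 95%. CPM used TMM-scaled totals, and log2 CPM a prior count of 2. Alternatives used DESeq2 1.42.0, limma 3.58.1 on log2(FPKM + pseudocount), other filters and scaling, a replicate block, Xist as a covariate, and each library left out. Fits were tested on simulated data.

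All 7 members were named, with called genes of the other lists (otherwise at most 4 by p), genes within 50 kb, and the 3 most similar genes per member. The members and lists were chosen with earlier results of these data known. Same-numbered replicates did not deviate together (correlations of -0.000292 to 0.145 at E9.5 and -0.233 to 0.155 at E10.5).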

Additional observations from a re-analysis of the deposited data

How the results depend on the processing

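Over the alternatives, 197 of 209 counts of called members equalled the main count or were within 1.5 times it. Of 1441 member log2 changes 0 reversed a called direction, but this could occur only where the main or the alternative fit called the gene. Uncalled estimates did change sign. At E9.5 Hoxd11 and Hoxd13 each kept theirs in 8 of 15 alternatives, and the stage difference of Hoxd13 kept its sign in 8 of 21. The exceptions for counts were 1 member (Hoxd10) at E9.5 with no filter, 1 with DESeq2 for the double mutant against wild type (main 0), 2 with DESeq2 (Hoxd9 and Hoxd12) and 0 with limma on log2(FPKM + 0.1) without a filter for Hoxb13hd averaged over the deletion (main 1), and 1 with DESeq2 for the interaction (main 0). Leaving out 1 library gave 0 to 1 members for Hoxb13hd against wild type and 0 to 2 for its average (the second is Hoxd11, without Del(i9-13) replicate 1). That replicate had the highest liver bud and visceral endoderm median of the E10.5 libraries. It was 4.13 on the log2 scale relative to the stage mean, against -1.32 to 1.80 in the rest. The cause of these changes in the count was not tested. The adjusted p of Hoxd9 in Hoxb13hd ran from 3.112e-05 to 0.0645. With the replicate block it was 0.0194, and the block changed no member count; the numbers are shared, but nothing shows that they pair the libraries. The alternative with only the compared groups in the fit was run for the 5 pairwise E10.5 comparisons.

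Counts over all genes moved more: 58 (20 to 537) at E9.5, 84 (40 to 285) for Del(i9-13), 69 (14 to 313) for the double mutant and 517 (51 to 1194) for Hoxb13hd against wild type, 156 (58 to 1453) and 165 (36 to 644) for the double mutant against Del(i9-13) and Hoxb13hd, 86 (21 to 382) and 1042 (223 to 2507) for the averaged deletion and Hoxb13hd, 90 (40 to 287) for the interaction and 8 (1 to 69) for the stage difference. Evx2, at 5 to 65 counts per library, is limited by depth, and 3 libraries per group limit the rest.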
